A study of Mus musculus with 27 samples.

Results

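Conjugating enzymes of drug and hormone metabolism were followed in mouse liver over a reproductive cycle. The genes were chosen by name: every mouse symbol that starts with Ugt1, Ugt2 or Ugt3, with Sult and a digit, or with Gst and the class letter a, m, p, t, k, o or z and a digit. Of 71 symbols that fitted, 7 pseudogene symbols ending in -ps were left out. The remaining 64 genes, of 51826 in the tables, comprised 21 UDP-glucuronosyltransferase genes, 21 sulfotransferase genes and 22 glutathione transferase genes. The rule reads symbols and no measured value.

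RNA of whole livers from wild-type BALB/c mice, an inbred laboratory strain, was sequenced in bulk, with 1 library per animal and 27 animals in all. The mice were age matched, and dams were bred at 10 to 12 weeks of age, nursed litters of equalised size and were weaned after 10 to 14 days. The groups were nulliparous mice that had never been pregnant (NUL, 4 animals), mice at lactation day 10 (LAC, 3), mice at days 2, 4, 6 and 8 after weaning, called involution days in the labels (ID2, 3; ID4, 4; ID6, 6; ID8, 3), and mice at 4 weeks after weaning (REG, 4). Nothing was given beyond breeding and weaning, and all groups share the same strain. Libraries summed to between 41120650 and 75664540 expected counts, and the 64 genes together took between 0.81% and 1.11% of them.

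These enzymes attach a polar group to a foreign or internal compound so that it can leave the cell and the body. UDP-glucuronosyltransferases, in the endoplasmic reticulum, transfer glucuronic acid from UDP-glucuronate to bilirubin, bile acids, steroids and drugs. Cytosolic sulfotransferases transfer sulfate from the donor PAPS to steroids, bile acids and phenols, and glutathione transferases join glutathione to reactive electrophiles. The liver is a main site of all these reactions.

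Levels are given as CPM, the count scaled to a common library total, and as TPM, the authors' length-scaled value, where genes are set against each other. A gene was called when its Benjamini-Hochberg adjusted p in edgeR's quasi-likelihood test, taken over all 16428 genes tested, was under 0.05. Of the 64 genes, 54 passed the filter on low counts and were tested. The other 10 were Gstt4, Sult1c1, Sult2a7, Sult2b1, Sult6b1, Sult6b2, Ugt1a2, Ugt1a8, Ugt2a1 and Ugt2a2. Among these, 5 had a count of 0 in every library, which allows up to 3 counts in each, and the highest count of any was 11, for Sult2b1. In a bulk sample, fewer cells of a type and less RNA per cell cannot be told apart.

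Animals carry numbers in their titles, 7 of them under 200 and 20 of 200 or over, and the labels do not say what the ranges mean. The lower range held every ID8 animal (3), 2 of the 3 from ID2 and 2 of the 4 from ID4, so stage and number range cannot be told apart in ID8. The other 4 stages, NUL included, lie wholly in the upper range. The 6 hepatocyte markers were detected at every stage, with a summed level of 99700 to 126000 CPM in NUL and 184000 to 228000 CPM in LAC. The library ID2_31 held 1810 CPM of 10 pancreas acinar markers and ID4_15 held 145 CPM, against at most 44.9 CPM in any other library. Kidney markers summed to at most 0.0634 CPM in any library.

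Of the 54 tested genes, 36 differed somewhere among the 7 stages in the joint edgeR test, where 27% of all genes tested did. The stage with the most calls against NUL was lactation. In LAC against NUL, 17 of the 54 genes were called higher and 5 lower, against 5.19% and 6% of all genes. The median log2 fold change of the 54 was 0.23, beside -0.009 over all genes tested. In ID2 against LAC, 8 were called higher and 14 lower, against 8.48% and 7.64% of all genes. These 2 comparisons share the LAC animals. The 8 periportal hepatocyte markers summed to 8750 to 9900 CPM in ID2, 5070 to 5810 in LAC and 5520 to 6380 in NUL, and the 8 pericentral ones to 4310 to 5500 CPM in ID2 and 2500 to 2850 in LAC. Hepatocyte markers were lower in ID2 than in LAC, at 137000 to 150000 CPM. Markers of sinusoidal endothelium (282 to 297 CPM), stellate cells (202 or more), bile duct (29.8 to 40.7) and intestine (37.1 to 42.8) were higher than in LAC, without overlap. Their part in the results was not tested. The plot of log2 ratios to NUL shows the calls gene by gene.

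**Figure D1:**
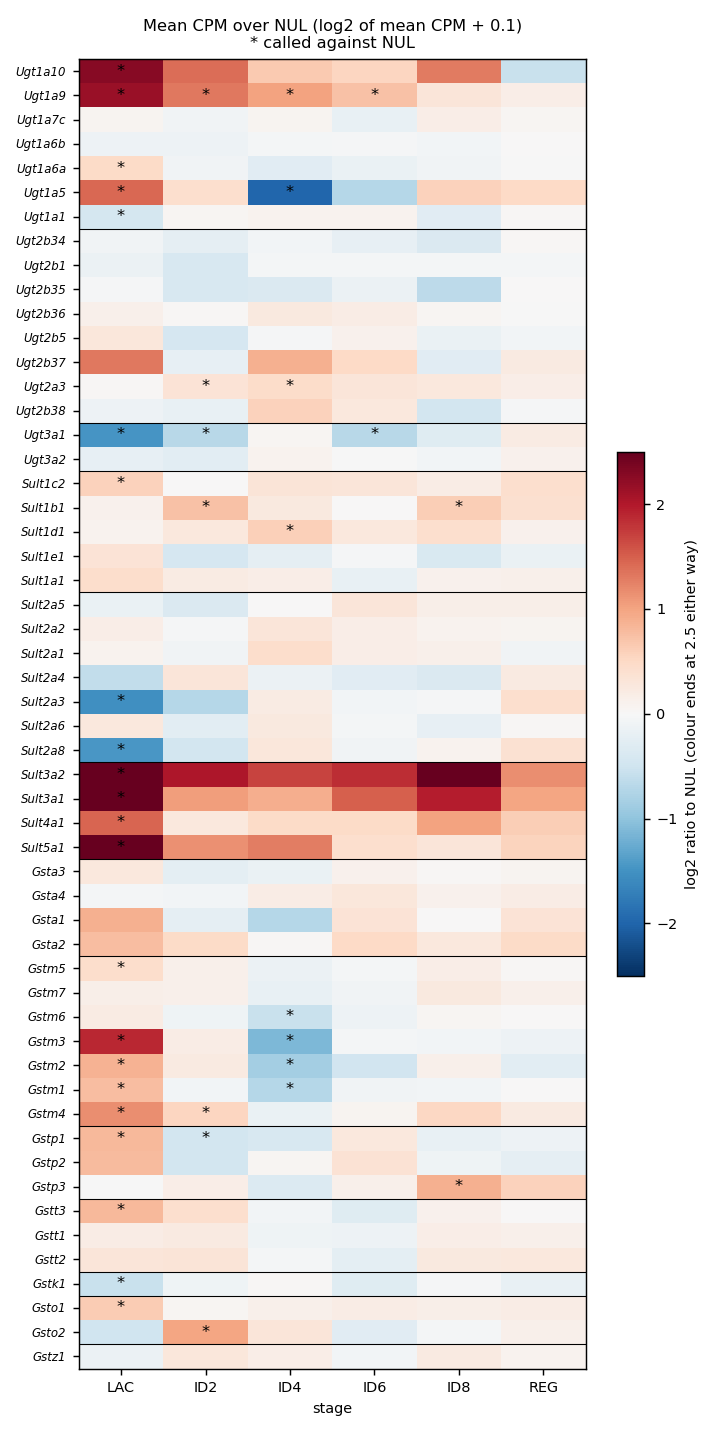
Each row is 1 of the 54 tested genes, grouped by family, and each column a stage. Colour gives the log2 ratio of mean CPM to that of NUL, with 0.1 added to both, and a star marks a call against NUL in the edgeR test. The LAC column holds 22 stars, ID2 7, ID4 8, ID6 and ID8 2 each, and REG 0.

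Summed over their members, the families took different courses. The Gstm sum, of the 7 mu-class glutathione transferases, was 1520 ± 270 TPM in NUL (SD, n = 4), 2350 ± 334 in LAC (n = 3) and 915 ± 73.8 in ID4 (n = 4), and neither stage overlapped NUL. The Gstp sum, of the 3 pi-class genes, was 634 ± 22.9 TPM in NUL, 993 ± 16.5 in LAC, and 458 ± 46.1 and 458 ± 60.5 in ID2 and ID4, again without overlap with NUL. In ID6 the Gstp sum ranged from 618 to 897 TPM and in REG from 511 to 689 TPM, both overlapping NUL, and in ID8, at 515 to 610 TPM, it lay below all NUL animals.

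The Gsto sum, of the omega class, was 1.43 times its NUL mean in LAC, with 134 ± 4.55 TPM against 93.6 ± 5.79. Sums that were lower in LAC, without overlap with NUL, were those of Gstk at 0.627 times the NUL mean, Ugt3 at 0.716 and Gstz, which is Gstz1 alone, at 0.833. In CPM the Gstz1 animals of LAC, at 481 to 564, overlapped those of NUL at 545 to 674. The Gsta, Gstt, Sult1, Sult2, Ugt1 and Ugt2 sums of LAC overlapped NUL, as did that of Sult3 to Sult9. The Ugt1 sum was 767 ± 75.1 TPM in NUL and 773 ± 30.5 in LAC. Family sums carry no test. All 64 genes together came to 10100 ± 1210 TPM in NUL and 11400 ± 265 in LAC, with overlapping ranges.

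**Figure D2:**
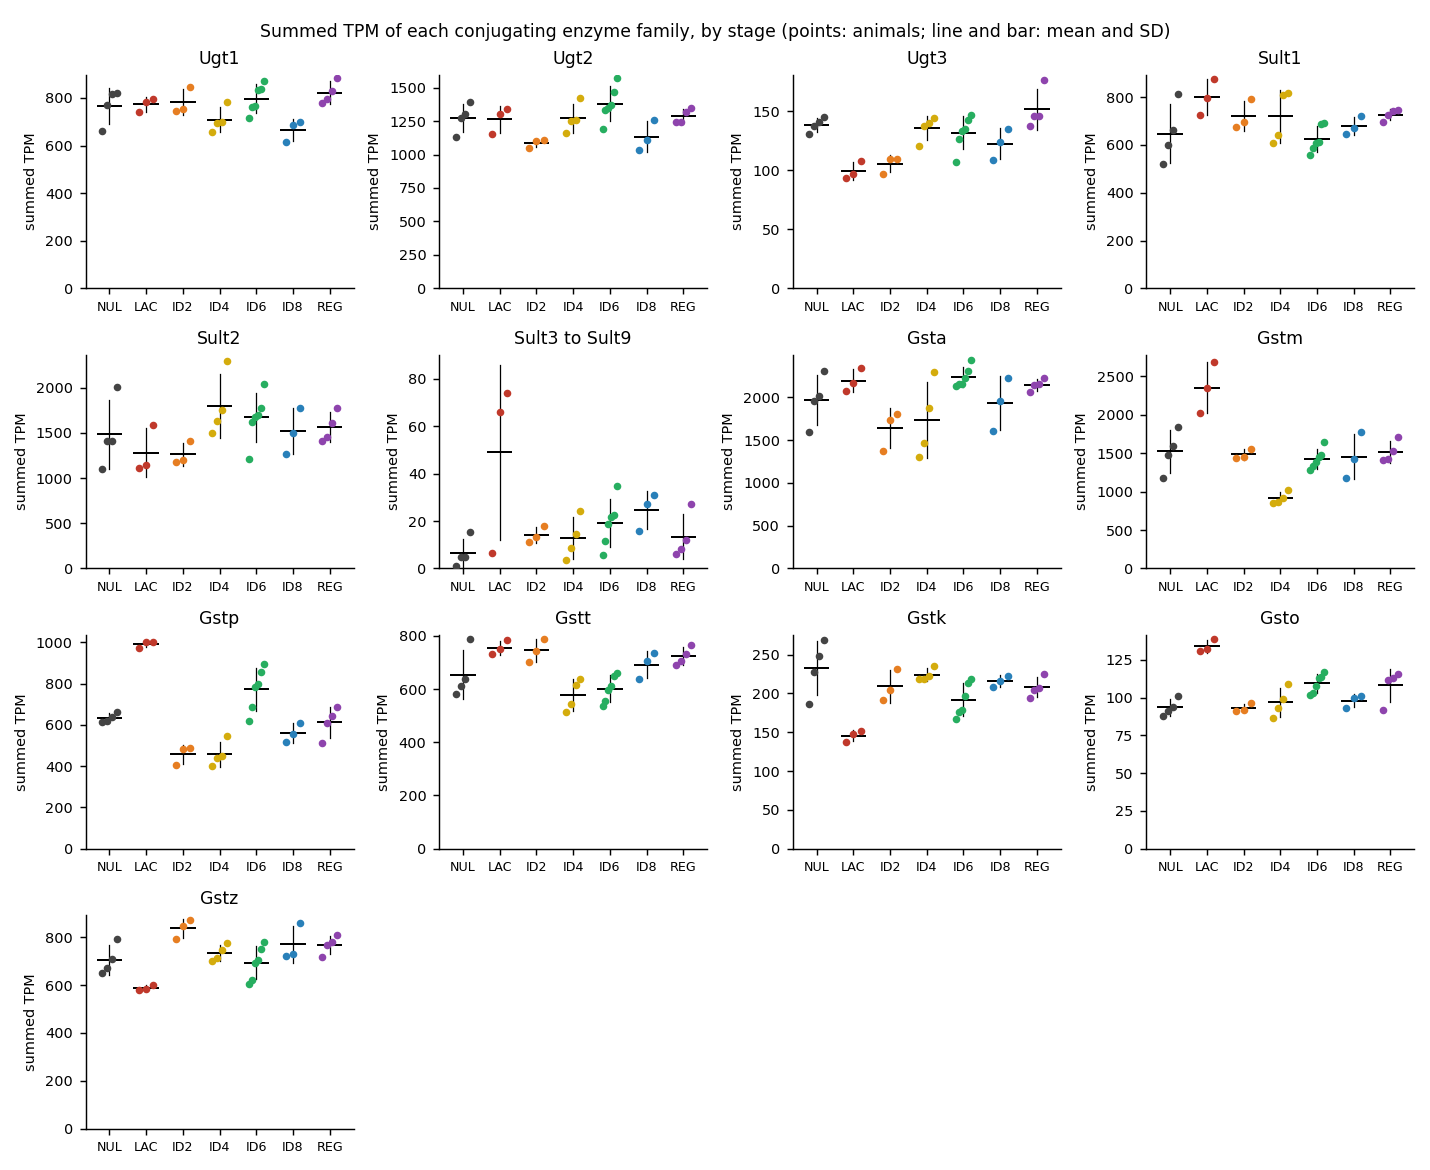
Each panel gives the summed TPM of 1 family (vertical axis) by stage, with a point per animal, a line for the mean and a bar for the SD. The Gstp panel shows the 3 LAC animals between 974 and 1000 TPM, above the 4 NUL animals between 614 and 664, and the Gstm panel shows the 4 ID4 animals between 855 and 1020, below the NUL animals between 1180 and 1840.

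The Ugt1 genes lie nested at chr1:88055388-88220002 on GRCm38. They share their later exons and differ in the exons before those. In the annotation, Ugt1a1, Ugt1a5, Ugt1a9, Ugt1a10 and the untested Ugt1a2 and Ugt1a8 each start with an exon of their own, while the Ugt1a7c transcript starts with the first exon of Ugt1a6b and goes on with the second exon of Ugt1a6a. Throughout, 3 or all 4 of the last 4 exons of each other Ugt1 transcript match those of Ugt1a1 exactly. A read in the shared exons does not tell which gene it came from, so the authors' counts for this family were divided by estimation: counts of Ugt1a1, Ugt1a5 and Ugt1a10 were fractional in 26 libraries, and those of Ugt1a6a, Ugt1a6b, Ugt1a7c and Ugt1a9 in all 27. Their levels are uncertain to that extent. Ugt1a10 starts with an exon of its own and was called in LAC against NUL, but its window is not shown. Promoter windows are shown for Ugt1a9, Ugt1a5 and Ugt1a1, which also have an exon of their own and that call. They are from RefSeq on GRCm38.p6, 250 bases before to 50 after the start, on the plus strand, at chr1:88070529-88070828, chr1:88165762-88166061 and chr1:88211709-88212008. Capitals mark a match to 1 of 6 motifs searched on both strands.
Ugt1a9: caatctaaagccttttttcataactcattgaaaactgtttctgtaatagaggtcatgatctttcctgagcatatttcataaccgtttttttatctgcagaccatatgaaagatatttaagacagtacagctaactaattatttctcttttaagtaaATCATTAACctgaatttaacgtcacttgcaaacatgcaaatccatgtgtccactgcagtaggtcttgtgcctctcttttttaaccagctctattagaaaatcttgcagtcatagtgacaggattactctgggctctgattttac
Ugt1a5: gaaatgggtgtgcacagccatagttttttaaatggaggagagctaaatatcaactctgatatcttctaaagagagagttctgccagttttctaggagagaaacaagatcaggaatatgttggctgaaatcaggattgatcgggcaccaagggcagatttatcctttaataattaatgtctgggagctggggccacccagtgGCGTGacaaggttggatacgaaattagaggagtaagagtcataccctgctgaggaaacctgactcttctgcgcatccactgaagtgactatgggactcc
Ugt1a1: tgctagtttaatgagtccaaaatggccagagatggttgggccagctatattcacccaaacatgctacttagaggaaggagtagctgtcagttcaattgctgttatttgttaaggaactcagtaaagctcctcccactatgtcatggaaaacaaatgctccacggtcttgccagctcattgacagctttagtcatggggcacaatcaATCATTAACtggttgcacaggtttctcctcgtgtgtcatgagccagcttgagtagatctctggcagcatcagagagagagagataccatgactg

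In the Ugt1a9 and Ugt1a1 windows the capitals are a match to the HNF1 site GTTAATNAT, which is bound by the hepatocyte nuclear factor HNF1. It begins 94 bases before the Ugt1a9 start and 44 before the Ugt1a1 start. In the Ugt1a5 window they are the AHR core GCGTG, 49 bases before the start. The windows shown were chosen after levels and matches had been seen. A match is a run of letters and no measured site.

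Ugt1a9, whose human counterpart conjugates phenols, had the smallest adjusted p of the 54 genes in LAC against NUL. Its CPM was 19.5, 19.3, 29.2 and 29.2 in the NUL animals and 95.7, 100 and 132 in the LAC animals. After weaning it was 52.2 to 68.6 in ID2, 42.4 to 59.6 in ID4, and 31.4 to 47.2 in ID6 with a median of 41.1. Every animal of these 4 stages lay above the highest NUL animal, whereas the ID8 animals at 29 to 31.1 and the REG animals at 21.7 to 31.9 overlapped NUL. On the log2 scale it was above NUL by 2.17 in LAC (SE 0.17, edgeR adjusted p = 2.94e-08), 1.32 in ID2 (SE 0.17, adjusted p = 0.000108), 1 in ID4 (SE 0.16, adjusted p = 0.000596) and 0.73 in ID6 (SE 0.15, adjusted p = 0.0102). Between LAC and ID2 it fell by 0.85 on the log2 scale (SE 0.18, adjusted p = 0.00283). The ID6 call was lost without NUL_221 (adjusted p = 0.061) and in a fit of ID6 and NUL alone (adjusted p = 0.0535).

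Ugt1a5 moved up in lactation and down 4 days after weaning. Its CPM was 124, 95.6, 103 and 132 in NUL, 338, 324 and 259 in LAC, and 33.1, 25.1, 25.4 and 31.2 in ID4. The 3 stages did not overlap. The log2 fold change against NUL was 1.43 in LAC (SE 0.23, edgeR adjusted p = 0.000296) and -1.99 in ID4 (SE 0.22, adjusted p = 1e-05), the largest fall of any tested conjugating enzyme gene at ID4. In ID6 the level ranged from 36.4 to 106 CPM and was higher than in ID4 by 1.28 (SE 0.2, adjusted p = 0.00065). The ID8 animals, at 157 to 179 CPM, lay above all NUL animals, but the difference of 0.57 was not called (adjusted p = 0.284).

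Ugt1a1, the enzyme that conjugates bilirubin, was the most abundant Ugt1 transcript, with 70.1 ± 0.694% of the family's TPM in NUL. Its CPM was 960, 752, 869 and 902 in NUL and 600, 674 and 649 in LAC, without overlap. The log2 fold change was -0.44 (SE 0.11, edgeR adjusted p = 0.0105), and without LAC_200 the adjusted p was 0.0608. By ID2 it was at 793 to 1050 CPM, a rise of 0.48 over LAC (SE 0.12, adjusted p = 0.00696), which was lost without ID2_224 (adjusted p = 0.0673). Ugt1a6a, whose class conjugates small phenols, rose from 107 to 145 CPM in NUL to 176 to 180 CPM in LAC, by 0.48 on the log2 scale (adjusted p = 0.00226). Its ID2 level was lower than in LAC by 0.56 (adjusted p = 0.000914).

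The Ugt1 sum of every stage overlapped NUL, with means from 667 TPM in ID8 to 823 in REG, and the makeup of the transcripts differed between stages. The Ugt1a1 share of the sum was 47.9 ± 1.58% in LAC and 76.5 ± 2.36% in ID4. The Ugt1a5 share was 9.24 ± 0.772% in NUL, 23.2 ± 3.24% in LAC and 2.41 ± 0.464% in ID4. The Ugt1a9 share was 2 ± 0.423% in NUL and 8.31 ± 1.56% in LAC. Ugt1a10 was called higher in LAC (log2 fold change 2.72, SE 0.84, edgeR adjusted p = 0.0368). Its levels were low, 0.0492 to 0.52 CPM in NUL and 0.521 to 2.28 CPM in LAC, so that the lowest LAC animal stood level with the highest NUL animal. The call was lost in 5 of 7 fits that left out a library, without a filter, with the sequencing runs in the fit and with LAC and NUL alone (adjusted p up to 0.146).

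**Figure D3:**
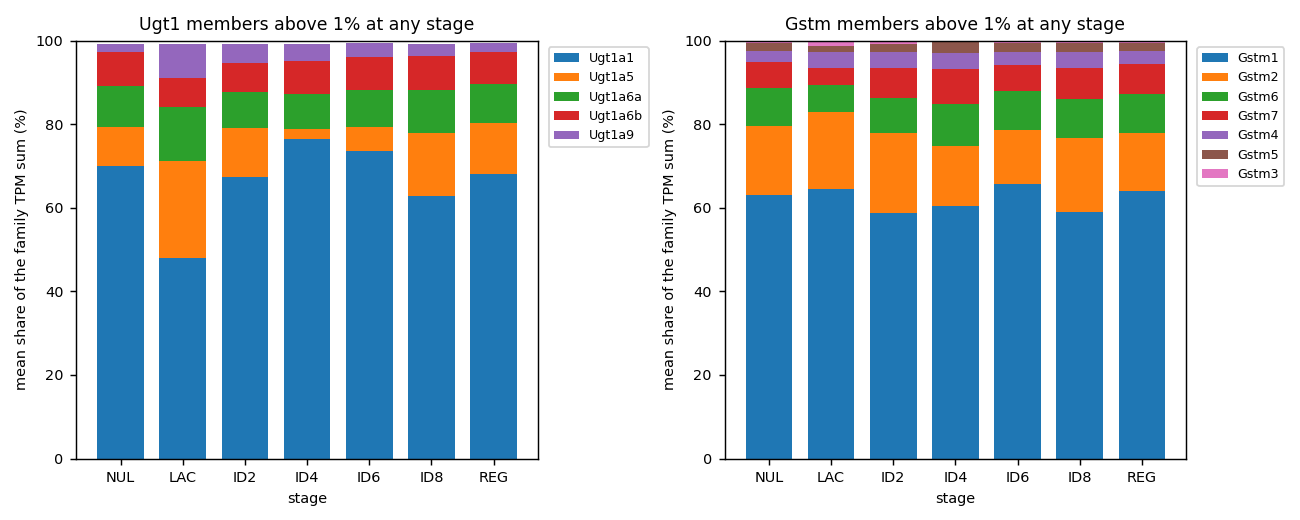
Stacked bars give the mean share of the family TPM sum (%) held by each gene at each stage, for Ugt1 on the left and Gstm on the right, with genes above 1% at any stage. Ugt1a1 falls from 70.1% in NUL to 47.9% in LAC while Ugt1a5 and Ugt1a9 widen, and Gstm1 stays between 58.8% and 65.6% of its family at every stage.

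Of the 8 tested Ugt2 genes, which conjugate steroids and bile acids, 0 were called in LAC against NUL by edgeR, where 5.19% and 6% of all genes were called higher and lower, and DESeq2 and limma also called 0. At an unadjusted p under 0.05 in edgeR there were 2, Ugt2b37 and Ugt2b5. Ugt2b37, at low levels, was 1.1 to 2.26 CPM in NUL and 2.49 to 5.64 in LAC, without overlap (log2 fold change 1.38, SE 0.54, adjusted p = 0.109). The log2 fold changes of the other 7 lay between -0.28 and 0.29. Ugt2b36 held 28.3 ± 1.47% of the family's TPM in NUL and 29 ± 0.937% in LAC, and Ugt2b5 held 27 ± 1.79% and 31 ± 1.03%. Ugt2b5 spanned 382 to 514 CPM in NUL, 464 to 616 in LAC and 318 to 376 in ID2. Its ID2 level was lower than in LAC by 0.71 (SE 0.14, edgeR adjusted p = 0.00112). Ugt2a3 was 183 to 197 CPM in NUL and 245 to 290 CPM in ID4, a rise of 0.46 (SE 0.09, adjusted p = 0.00264). The Ugt2a3 rise in ID2 over LAC, of 0.31, was lost in 5 of 6 fits that left out a library. The Ugt2 family sum was lower in ID2 than in any NUL animal, 1050 to 1110 TPM against 1130 to 1390 TPM.

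Of the Ugt3 genes, which use sugar donors other than UDP-glucuronate, Ugt3a1 fell in lactation. Its CPM was 28, 34.5, 31 and 23.5 in NUL and 9.17, 10.9 and 11.1 in LAC. Its log2 fold change was -1.49 (SE 0.19, edgeR adjusted p = 2.17e-05). It rose by 0.81 between LAC and ID2 (SE 0.2, adjusted p = 0.00809), stood at 24.8 to 37.7 CPM in ID4, and at 12.5 to 21.7 CPM in the 6 ID6 animals was again below all NUL animals (log2 fold change -0.71, SE 0.15, adjusted p = 0.0167). The ID6 call was lost without NUL_221 (adjusted p = 0.0868) and without NUL_226 (adjusted p = 0.0551). Ugt3a2, the more abundant of the pair per length, was 194 ± 11.7 CPM in NUL and 168 ± 15 CPM in LAC and was not called.

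Among the sulfotransferases, log2 fold changes of those called at lactation ran from -1.54 to 4.94. The most abundant by TPM were Sult2a1, which sulfates bile acids and hydroxysteroids, and Sult1a1, which sulfates phenols. Neither was called in LAC against NUL. Sult2a1 spanned 371 to 727 CPM in NUL and 438 to 746 in LAC (log2 fold change 0.08, SE 0.22). Sult1a1 spanned 344 to 578 CPM in NUL and 524 to 682 in LAC (log2 fold change 0.44, SE 0.15, edgeR adjusted p = 0.0527). Sult1e1, the estrogen sulfotransferase, had at most 20 counts in any library and differed by 0.61 on the log2 scale between LAC and NUL (SE 0.96, adjusted p = 0.77), so a difference was not detectable at this depth.

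Sult2a8, which sulfates bile acids in mouse liver, and Sult2a3 fell in lactation. Both lie in the cluster of 8 Sult2a genes at chr7:13623967-14494230, with Sult2a6, which was not called (log2 fold change 0.27), between them. Sult2a8 was 281, 250, 236 and 307 CPM in NUL and 123, 113 and 58.1 CPM in LAC, without overlap. This fall of 1.45 on the log2 scale had an SE of 0.24 (edgeR adjusted p = 0.000412). By ID2 it had risen by 0.98 (SE 0.25, adjusted p = 0.00953), a call lost when ID2 and LAC were fitted alone (adjusted p = 0.0928).

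Sult2a3 was 79.9, 37.6, 28.5 and 35.8 CPM in NUL and 11.4, 22.8 and 12.8 CPM in LAC, again without overlap. Its log2 fold change was -1.54 (SE 0.41, edgeR adjusted p = 0.019). The Sult2a3 call was lost without LAC_200, without LAC_240 or without NUL_220 (adjusted p between 0.0758 and 0.0946), and in a fit of LAC and NUL alone (adjusted p = 0.121). Of the other 5 tested genes of the cluster, 0 were called in this comparison by edgeR, where 5.19% and 6% of all genes were called higher and lower, and 0 had an unadjusted p under 0.05, but 5 genes are too few to set against those shares. Counts of Sult2a1, Sult2a2, Sult2a4 and Sult2a5 were fractional in 23 to 27 libraries, so some of their reads were divided between genes. Those of Sult2a3 and Sult2a8 were whole in all.

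Sult3a1, an amine sulfotransferase, and Sult3a2 beside it at chr10:33766424-33879532 were called higher in lactation. Sult3a1 was 0.501, 3.29, 3.01 and 10.5 CPM in NUL and 45.7, 40.3 and 3.88 CPM in LAC. LAC_240, the low animal, lay within the NUL range. The log2 fold change was 2.8 (SE 0.84, edgeR adjusted p = 0.0342), and it was 3.32 without LAC_240 and 3.73 without NUL_227. Leaving out any 1 of the other 5 libraries ended the call, with adjusted p between 0.0779 and 0.125. It was also lost without a filter on low counts and with LAC and NUL fitted alone (adjusted p up to 0.244).

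Sult3a2 was 0.0678 to 0.286 CPM in NUL and 6.23, 7.14 and 0.416 CPM in LAC (log2 fold change 4.94, SE 1.07, adjusted p = 0.00442), without overlap. LAC_240 was also the lowest LAC animal for Sult5a1, which was 0.0813 to 0.289 CPM in NUL and 4.45, 2.01 and 0.364 CPM in LAC (log2 fold change 3.61, SE 0.85, adjusted p = 0.00709). These are low levels: counts in NUL ran from 5 to 18 for Sult3a2 and from 6 to 19 for Sult5a1. For the sum over the Sult3 to Sult9 genes, the ratio of LAC to NUL was 7.44, and 13.2 without NUL_227, although the LAC animals at 6.55 to 74.2 TPM overlapped the NUL animals at 1.16 to 15.2. In ID8 the sum was 15.7 to 31.2 TPM. Sult4a1, a brain-type member with counts of at most 59, was also called higher in LAC (log2 fold change 1.83, adjusted p = 0.0284), a call lost in 5 of 7 fits that left out a library (adjusted p up to 0.0941). Without LAC_200 the Sult5a1 call was lost as well (adjusted p = 0.0584).

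Promoter windows of Sult2a3 and Sult3a1, genes that went in opposite directions in lactation, are printed. Each holds a match, and the pair was chosen after matches had been seen. The Sult2a3 window lies at chr7:14122999-14123298 on the minus strand and the Sult3a1 window at chr10:33857472-33857771 on the plus strand. Capitals mark the HNF1 site, 51 bases before the Sult2a3 start, and a STAT site TTCNNNGAA, the palindrome bound by STAT factors, 109 bases before the Sult3a1 start. The 2 RefSeq windows of Sult2a8 and the window of Gstm3, genes with smaller adjusted p-values in lactation, held none of the 6 motifs and are not printed, and that says only that these letters are not in those windows.
Sult2a3: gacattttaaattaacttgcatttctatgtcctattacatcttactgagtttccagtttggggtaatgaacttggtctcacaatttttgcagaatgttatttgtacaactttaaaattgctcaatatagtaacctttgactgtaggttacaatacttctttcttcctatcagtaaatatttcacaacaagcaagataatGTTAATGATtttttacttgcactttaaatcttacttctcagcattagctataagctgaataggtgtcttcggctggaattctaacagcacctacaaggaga
Sult3a1: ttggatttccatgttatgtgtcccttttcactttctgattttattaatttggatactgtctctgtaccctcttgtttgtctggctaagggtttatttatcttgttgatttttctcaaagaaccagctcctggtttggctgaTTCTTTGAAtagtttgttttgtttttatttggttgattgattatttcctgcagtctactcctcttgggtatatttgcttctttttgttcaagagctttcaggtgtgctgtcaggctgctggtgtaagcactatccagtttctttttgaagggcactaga

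RefSeq windows were found for 56 of the 64 genes. The HNF1 site GTTAATNAT stood in windows of 8 of them (14.3%), against 0.94% of the 27025 genes with a window. The 8 were Ugt1a1, Ugt1a9, Ugt1a10, Sult1d1, Sult2a3, Sult2a4, Sult2a5 and Sult2a6, and they include genes that rose and genes that fell in lactation. The NRF2-MAF core TGACNNNGC, the antioxidant response element, stood in windows of 3 genes (5.36%, against 14%). The STAT site stood in 4 (7.14%, against 9.55%) and the AHR core GCGTG in 11 (19.6%, against 35.2%). The clock motifs were in 1 gene for the D-box TTATGTAA (1.79%, against 1.11%) and in 0 for the E-box CACGTG (against 8.09%). Close copies share promoter sequence, so these genes are not independent of each other.

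Among the Sult1 genes, Sult1c2 rose from 29.9 to 47.5 CPM in NUL to 53 to 61.7 CPM in LAC, by 0.58 (SE 0.13, edgeR adjusted p = 0.00433), and its ID2 level was lower than in LAC by 0.56 (adjusted p = 0.00831, and 0.0541 without LAC_213). Sult1b1, which sulfates thyroid hormones and small phenols, was not called in LAC against NUL (log2 fold change 0.11, adjusted p = 0.73) but was 23.5 to 25.7 CPM in ID2 against 14.1 to 15.6 CPM in NUL (log2 fold change 0.73, SE 0.15, adjusted p = 0.00504). Its rise over LAC, of 0.62, was lost without LAC_240 (adjusted p = 0.0585). Sult1d1, a catecholamine sulfotransferase, was 152 to 206 CPM in ID4 against 103 to 149 CPM in NUL (log2 fold change 0.6, SE 0.14, adjusted p = 0.0143). That call was lost in 4 of 8 fits that left out a library, without ID4_211, NUL_221, NUL_226 or NUL_227 (adjusted p between 0.0506 and 0.0579).

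The mu-class glutathione transferases form a cluster of 7 genes at chr3:107895821-108044894. In LAC against NUL, where 5.19% of all genes were called higher, 5 of the 7 were, namely Gstm1, Gstm2, Gstm3, Gstm4 and Gstm5, and Gstm6 and Gstm7 were not (log2 fold changes 0.21 and 0.14). Gstm1, the most abundant, was 986, 628, 812 and 794 CPM in NUL and 1380, 1150 and 1590 CPM in LAC. Gstm1 rose by 0.77 on the log2 scale (SE 0.13, edgeR adjusted p = 0.000383). Gstm3 was 11.4, 4.5, 6.24 and 8.15 CPM in NUL and 31.1, 22.7 and 31.2 CPM in LAC. It had the largest rise of the class, 1.9 on the log2 scale (SE 0.28, adjusted p = 0.00015). Neither gene overlapped between the stages.

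Gstm4 rose by 1.15 (SE 0.14, edgeR adjusted p = 1.53e-05), Gstm2 by 0.86 (SE 0.19, adjusted p = 0.00343) and Gstm5 by 0.44 (SE 0.1, adjusted p = 0.00351). All 5 were called lower in ID2 than in LAC, as 7.64% of all genes were, with log2 fold changes from -1.71 for Gstm3 to -0.3 for Gstm5. The Gstm2 and Gstm5 calls there were lost in each of the 6 fits that left out a library, and the Gstm4 call when title number or clock genes entered the fit.

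At ID4 the mu-class sum, of which Gstm1 held 60.4 ± 1.32%, and 4 of the 7 genes were below the nulliparous level. Against NUL, 3 of the 54 conjugating enzyme genes were called higher and 5 lower in ID4, where 2.64% and 1.61% of all genes were. Without NUL_220 the calls were 5 higher and 3 lower. Of the 5 that fell, 4 were mu-class genes and the other was Ugt1a5. The other mu-class genes, Gstm4, Gstm5 and Gstm7, were not called (log2 fold changes -0.17, -0.16 and -0.18) and overlapped NUL. Gstm1 was 448, 542, 452 and 518 CPM in ID4 (log2 fold change -0.72, SE 0.12, edgeR adjusted p = 0.00093), and all 4 animals lay below the lowest NUL animal at 628. Gstm2 was 79.6 to 103 CPM against 118 to 205 (log2 fold change -0.84, SE 0.18, adjusted p = 0.00548).

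Gstm3 (log2 fold change -1.14, SE 0.27, adjusted p = 0.0186) and Gstm6 (-0.55, SE 0.15, adjusted p = 0.0375) overlapped NUL by animal. The Gstm3 call was lost without ID4_13 or NUL_220 (adjusted p 0.068 and 0.0685), with the title number in the fit (0.0652) and with ID4 and NUL alone (0.0809). The Gstm6 call was lost in 6 of 8 fits that left out a library and in 5 of 7 other settings, among them the title number, sequencing run and clock covariates (adjusted p up to 0.131). The genes that were higher in ID4 than in NUL were Ugt1a9, Sult1d1 and Ugt2a3.

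In ID6 against ID4, 4 genes were called higher and 2 lower, against 3.89% and 4.64% of all genes. Gstm1 rose by 0.64 (SE 0.12, edgeR adjusted p = 0.00108), to 677 to 819 CPM, and Gstm3 by 1.1 (SE 0.26, adjusted p = 0.0101). The other risers were Gstp1 and Ugt1a5, and those that fell were Ugt3a1 (log2 fold change -0.76, adjusted p = 0.00328) and Gstk1 (-0.34, adjusted p = 0.0215). The Ugt3a1 call was lost by limma on log2(TPM + 1) (adjusted p = 0.0953). Gstk1, at 127 to 145 CPM in ID4 and 88.5 to 127 in ID6, lost its call by limma, with the title number in the fit, with these stages alone and without ID4_215 or ID6_232 (adjusted p between 0.0505 and 0.0863). Summed levels of 6 Kupffer cell and macrophage markers were 529 to 591 CPM in ID4 and 304 to 388 in NUL, and those of 8 pericentral hepatocyte markers were 6340 to 7720 CPM in ID4 and 4410 to 6840 in NUL. The 6 adipocyte markers summed to 288 to 575 CPM in ID4 and 687 to 924 in NUL. The 6 erythroid markers summed to 407 to 1030 CPM in ID4 and to 53.2 to 264 in ID6. The part of these markers in the ID4 and ID6 results was not tested.

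**Figure D4:**
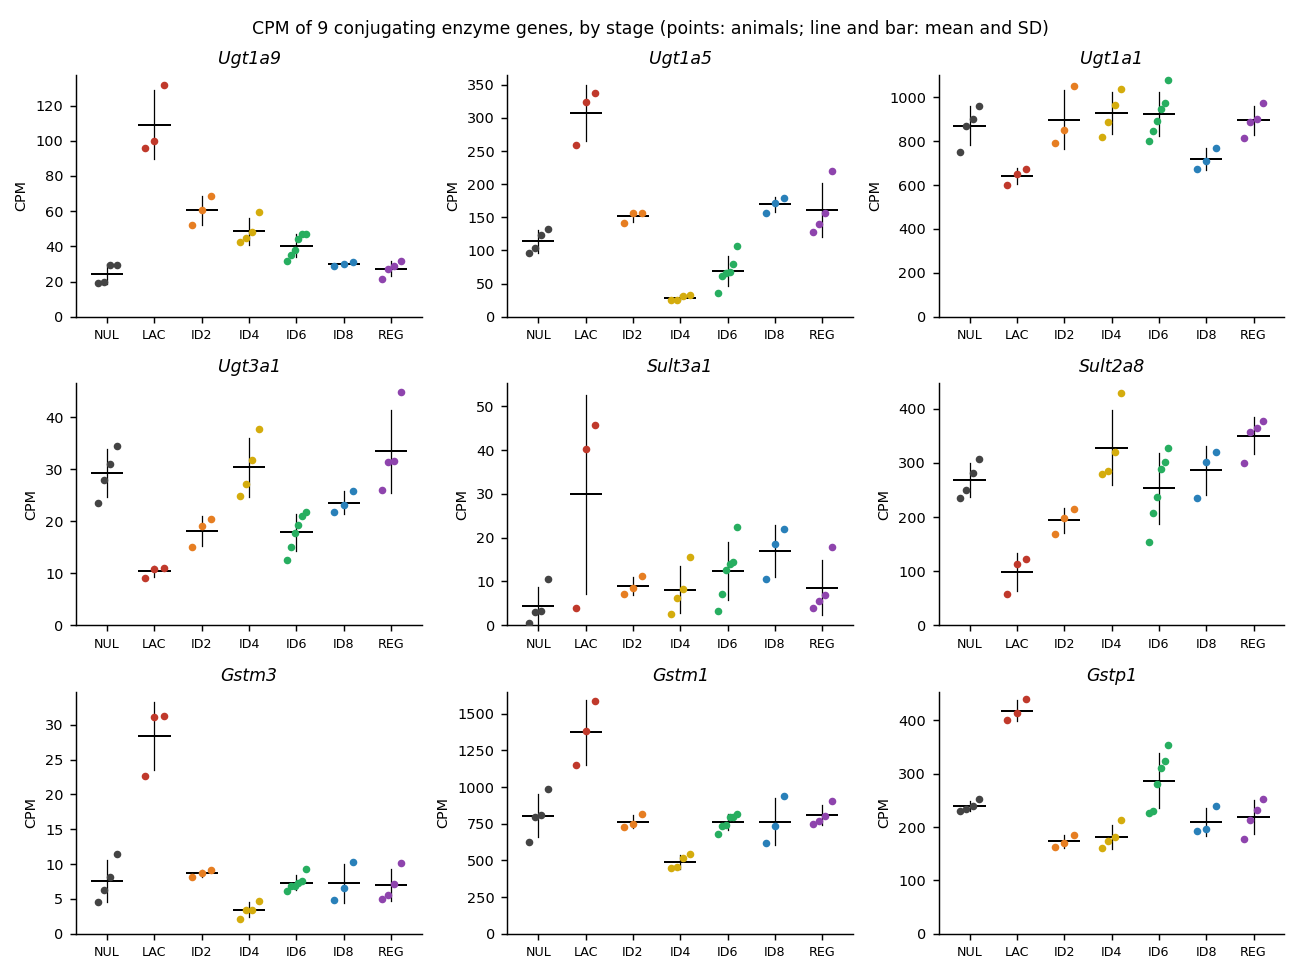
CPM (vertical axis) of 9 genes by stage, with a point per animal, a line for the mean and a bar for the SD. Ugt1a9, Gstm3 and Gstp1 have their 3 highest animals in LAC, Ugt1a5 and Gstm1 are lowest in ID4, Ugt3a1 and Sult2a8 are lowest in LAC, and Sult3a1 has 1 LAC animal within the NUL range.

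Gstp1, the pi-class enzyme, held 92.4 ± 0.787% of its family's TPM in NUL. Its CPM lay between 231 and 252 in the 4 NUL animals and was 413, 440 and 401 in LAC, and 163, 170 and 186 in ID2. The LAC animals were all above NUL and the ID2 animals all below it. The log2 fold change was 0.81 in LAC against NUL (SE 0.13, edgeR adjusted p = 0.000172) and -1.27 in ID2 against LAC (SE 0.14, adjusted p = 1.83e-06). Against NUL the ID2 value was -0.47 (SE 0.13, adjusted p = 0.0471), and that call was lost in all 7 fits that left out a library. The rise in ID6 over ID4 was 0.66 (SE 0.11, adjusted p = 0.000726). Counts of Gstp1 and of Gstp2, which was at most 3.53 CPM, were fractional in all 27 libraries, so some of their reads were divided between genes.

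Among the other classes, Gsto1, of the omega class, was 66.2 to 77.8 CPM in NUL and 108 to 110 CPM in LAC (log2 fold change 0.63, SE 0.08, edgeR adjusted p = 1.56e-05). Gstt3, of the theta class, was 81 to 156 CPM in NUL and 183 to 219 CPM in LAC (log2 fold change 0.81, SE 0.17, adjusted p = 0.00281). Gstk1, the mitochondrial and peroxisomal kappa-class enzyme, went the other way, with 104 to 148 CPM in NUL and 85.6 to 89.7 CPM in LAC (log2 fold change -0.56, SE 0.11, adjusted p = 0.00141).

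Gstz1, the zeta-class enzyme of tyrosine breakdown, was not called in LAC against NUL (log2 fold change -0.16, SE 0.1, adjusted p = 0.361). Its ID2 level, 707 to 747 CPM, was higher than in LAC by 0.44 (SE 0.11, adjusted p = 0.00506). Gsto2, at most 1.19 CPM, was also called higher in ID2, by 1.74 over LAC (SE 0.36, adjusted p = 0.00156) and by 1.12 over NUL (SE 0.32, adjusted p = 0.0461), of which the second was lost in all 7 fits that left out a library.

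The alpha class, which also reduces lipid peroxides, summed to 1970 ± 297 TPM in NUL and 2190 ± 134 TPM in LAC, with overlap. Gsta3 held 88.8 ± 1.32% of it in NUL. None of its 4 members was called in LAC against NUL by edgeR, where 5.19% and 6% of all genes were, and 4 genes are too few to set against those shares. At an unadjusted p under 0.05 there was 1, Gsta2 (log2 fold change 0.78, adjusted p = 0.131). Gsta3 was 1030 to 1480 CPM in NUL, 1370 to 1630 in LAC and 911 to 1170 in ID2, and its fall of 0.5 between LAC and ID2 was called (SE 0.16, edgeR adjusted p = 0.0351). That call was lost in 4 of 6 fits that left out a library, by limma and with title number or clock genes in the fit (adjusted p up to 0.557). Gsta1 was not called in LAC (log2 fold change 0.92, SE 0.53, adjusted p = 0.315), and its counts, like those of Gsta2, were fractional in all 27 libraries.

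By comparison with NUL, few calls were left at the later stages. In ID2 against NUL, 5 genes were called higher and 2 lower, where 2.32% and 0.919% of all genes were. Only Ugt1a9 and Sult1b1 kept the call in every fit that left out a library. Leaving out any 1 of the 3 ID2 libraries, among them ID2_31 with the pancreas markers, left 2 genes called (18 in ID2 against LAC), and 2 were called with the clock genes as a covariate. The clock score was highest in ID2_39, and 9 day-arm clock genes summed to 186 to 326 CPM in ID2 against 78.5 to 135 in NUL. In ID6 against NUL, Ugt1a9 was called higher and Ugt3a1 lower, with 0.402% and 0.682% of all genes called. Erythroid markers summed to 53.2 to 264 CPM in ID6, against 335 to 712 in NUL, and Kupffer cell and macrophage markers to 410 to 679 CPM, above NUL. Their part in the ID6 results was not tested.

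In ID8 against NUL, Gstp3 (22.9 to 34.2 CPM against 13.2 to 18.1, log2 fold change 0.89, SE 0.2, edgeR adjusted p = 0.0399) and Sult1b1 (18.6 to 25.3 CPM, log2 fold change 0.62, SE 0.15, adjusted p = 0.0497) were called higher and 0 genes lower, where 0.359% and 0.14% of all genes were. Erythroid markers summed to 19.9 to 35.2 CPM in ID8, below all NUL animals. Sums of sinusoidal endothelium markers, at 309 to 315 CPM against 263 to 300, and of the day-arm clock genes, at 138 to 207 CPM against 78.5 to 135, were above NUL without overlap. The part of the cell markers was not tested, and with the clock genes as a covariate the Gstp3 call was lost. Neither call remained once title number entered the fit, and each was lost in 5 or 6 of 7 fits that left out a library.

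At 4 weeks after weaning, 0 of the 54 genes were called against NUL by edgeR, where 0.0243% of all genes were called higher and 0.0609% lower. At an unadjusted p under 0.05 there were 6, and DESeq2 also called 0. The share of all genes at that unadjusted cut was not counted, so the 6 cannot be read as a lasting rise. The 6 were Gsto1, Gstp3, Gstt2, Sult1b1, Sult1c2 and Ugt1a5, all with higher means in REG and log2 fold changes of 0.19 to 0.59. Ugt1a5 was 128 to 220 CPM in REG and 95.6 to 132 in NUL.

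Genes that supply the conjugation reactions were counted on lists, which carry no test. Their counts stand beside 5.19% of all genes called higher and 6% called lower in LAC against NUL, and 8.48% and 7.64% in ID2 against LAC, and their medians beside -0.009 and 0.015 over all genes. On lists this short 1 gene is a large share. Of 5 genes of UDP-glucuronate supply, 2 were higher in LAC than in NUL and 0 lower: Ugdh, which oxidises UDP-glucose to UDP-glucuronate, rose by 1.14 (146 ± 17 to 322 ± 33.6 CPM, edgeR adjusted p = 6.11e-06) and Ugp2, which makes UDP-glucose, by 0.64 (adjusted p = 0.000428). In ID2 against LAC 4 of the 5 were lower and 0 higher. The list's median log2 fold changes were 0.64 and -0.63. Of 9 genes of sulfate and PAPS supply, 0 were higher and 2 lower in LAC, with a median of 0.03. In ID2 against LAC 3 were higher and 1 lower, among them Papss2, which makes PAPS, by 0.76 (adjusted p = 0.000828). Of 14 tested genes of glutathione supply and turnover, 4 were higher and 1 lower in LAC (median 0.01), with the glutathione synthetase Gss up by 0.58 (adjusted p = 0.00912, and 0.0614 without LAC_240) and the peroxidase Gpx1 lower (log2 fold change -0.38, adjusted p = 0.0215). The Gpx1 call was lost in 5 of 7 fits that left out a library (adjusted p up to 0.08).

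Neither of the 2 tested microsomal glutathione transferases was called in LAC against NUL. Of 17 other conjugating enzymes, 3 were higher and 1 lower in LAC (median 0.14), against the 5.19% and 6% of all genes, led by Keg1, an acyltransferase of the glycine N-acyltransferase family (log2 fold change 0.97, adjusted p = 0.00125). Of 9 tested genes of deconjugation and hydrolysis, 5 were higher and 0 lower (median 0.34), among them Ephx1, the microsomal epoxide hydrolase (0.86, adjusted p = 7.69e-05), and the carboxylesterase Ces2c (1.87, adjusted p = 0.000959). Of 12 conjugate transporters, 2 were higher and 3 lower (median -0.06), with Slc22a7, an organic anion carrier, at -1.44 (adjusted p = 0.003).

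Lists of target genes outside the conjugating enzymes were counted for the sensors that control them in liver. These lists share genes with each other and with the lists above, so their counts are not separate. Ugdh and Ephx1, counted above, are also on the NRF2 list, as are Gclc, Gclm, Gsr and Slc7a11 of glutathione supply. Of 14 tested targets of NRF2, the factor that induces antioxidant genes, 8 were higher and 0 lower in LAC against NUL, where 5.19% and 6% of all genes were. In ID2 against LAC 0 were higher and 10 lower, where 8.48% and 7.64% of all genes were. Their median log2 fold changes were 0.42 and -0.6, beside -0.009 and 0.015 over all genes. G6pdx (2.16, adjusted p = 0.00105), Me1 (1.09, adjusted p = 0.00686) and Pgd (0.9, adjusted p = 0.00281) are on that list, and all 3 also make NADPH for lipid synthesis. Srxn1, sulfiredoxin, rose by 0.64 (adjusted p = 2.17e-05). Nqo1 and Gclc were not called in LAC.

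Of 11 targets of the receptors CAR and PXR, 3 were higher and 0 lower in LAC against NUL (median 0.36), and of 6 tested AHR targets 0 were called in either direction (median 0.26), beside 5.19% and 6% of all genes. Among 26 regulators, 2 were higher and 3 lower. Nfe2l2, which encodes NRF2, was 50.1 ± 5.98 CPM in NUL and 65.5 ± 7.82 CPM in LAC (log2 fold change 0.38, adjusted p = 0.0253), and Stat5a was lower (-0.79, adjusted p = 0.000419). The Nfe2l2 call was lost by limma, with LAC and NUL alone and in 4 of 7 fits that left out a library (adjusted p up to 0.193). Of 20 tested growth-hormone and sex-dependent genes, 5 were higher and 1 lower in LAC (median 0.09). In LAC the summed levels of 8 pericentral hepatocyte markers were 2500 to 2850 CPM, against 4410 to 6840 in NUL, while the hepatocyte markers were higher. Sums of markers of other cells also lay apart from NUL, with no overlap. They were lower for Kupffer cells and macrophages (200 to 287 CPM against 304 to 388), sinusoidal endothelium (median 237 against 287), stellate cells (165 to 179 against 212 to 280) and bile duct (21.4 to 28 against 33.9 to 47.2). Adipocyte markers (432 to 533 against 687 to 924), intestine markers (27.3 to 30.6 against 35.1 to 69.1), lymphocyte markers (1.08 to 2.14 against 3.34 to 4.59) and pancreas acinar markers (9.85 to 19 against 19.8 to 34.3) were lower as well. Erythroid markers were higher, at 768 to 1020 CPM against 335 to 712. Their part in the lactation results was not tested.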

How the data were processed

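Per the labels, RNA was extracted from frozen, pulverised livers with Trizol and the NEBNext Ultra RNA kit was used to make 1 library per animal. The submitters' processing notes name STAR 2.6.1a, RSEM 1.3.1 and the builds mm10 and GRCm38. Trimming and the use of strand are not given in the sources used here, so reads of overlapping and antisense genes cannot be told apart. The expected count per gene, per the file headers, is the authors' estimate with shared reads divided among genes, and is not normalised. TPM is the authors' length-scaled value, per the file headers. The deposited effective length is RSEM's gene length corrected for fragments. Symbols and positions came from GENCODE M21 on GRCm38 (51633 of 51826 identifiers matched). Nothing in the labels beyond separate titles says how replicates were collected, so p-values measure the spread between these 27 libraries. Libraries held 41120650 to 75664540 counts, and a limit stated from counts covers only counting error.

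Expected counts were rounded and tested with edgeR 4.0.16 in R 4.3.3: filterByExpr (16428 genes kept), TMM, and 1 robust quasi-likelihood fit of all 27 libraries with 7 groups, two-sided. P-values were adjusted by Benjamini-Hochberg over all genes tested in each comparison, with calls at an adjusted p under 0.05, and the tests were checked on simulated data. Alternatives were DESeq2 1.42.0, no filter on low counts, limma 3.58.1 on log2(TPM + 1), covariates for the title number, the sequencing runs and the clock genes, fits of the compared groups alone, and leaving out each library. The sequencing runs covariate marked the 16 libraries with more than 1 run, against 11 with 1. It was uneven over stages: 4 of 4 in ID4, 3 of 4 in NUL, 4 of 6 in ID6, 2 of 3 in LAC, 1 of 3 in ID2 and ID8, and 1 of 4 in REG.

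The comparisons, the conjugating enzyme genes and the lists of other genes were chosen with earlier results of these data known. Genes named were, in each comparison, up to 8 called risers and 8 fallers by log2 fold change if their mean log2 CPM was 1 or more, up to 3 genes of highest TPM per family, and Sult1e1, Sult2a1, Ugt1a1, Gsta1, Gstm1 and Gstp1. Other genes outside that rule, among them Sult3a2, Sult4a1, Sult5a1, Ugt1a10, Ugt2b37, Gstm5, Gsto2 and those named by count or fractional reads, were chosen after their values were seen. From the other lists up to 4 called genes each were eligible. Protein sequences were not used here.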

Additional observations from a re-analysis of the deposited data

Results flagged for a closer look

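Among 164 groups of 4 or 6 animals tested for an animal that stands apart, over 41 named genes, 7 had one by Dixon's criterion. Chance gives about 1 in 20 such groups. In ID6 the Gsta2 level of ID6_201 was 43.5 CPM against 30.5 to 34.2 in the other 5 animals. The Gstk1 level of ID4_215 was 145 CPM against 127 to 128 in the other 3 ID4 animals. In REG, Gstz1 was 552 CPM in REG_214 against 643 to 661. Sult1c2 was 42.8 CPM in REG_234 against 51.8 to 53.1 in the other REG animals. Sult1d1 was 149 CPM in NUL_220 against 103 to 111 in the other NUL animals, and that animal enters the ID4 comparison with NUL above. Sult3a2 was 2.22 CPM in ID6_216 against 0.195 to 0.849. Ugt2b34 was 414 CPM in NUL_221 against 485 to 488. The 7 values came from 7 different libraries.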

How the results depend on the processing

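No paired analysis was possible because no title number occurs in more than 1 group, so a replicate block could not be fitted. Of 69 calls of a conjugating enzyme gene in a comparison, and of 153 calls of genes on the other lists, 0 changed sign under an alternative run. The balance of calls did turn in 2 comparisons: in ID8 against NUL, 2 higher and 0 lower became 0 and 1 by limma and without ID8_14, and 0 and 2 without NUL_221, and in ID4 against NUL, 3 higher and 5 lower became 5 and 3 without NUL_220. Of 64 family ratios whose stage overlapped NUL, 20, between 0.939 and 1.05, crossed 1 under some alternative. The Ugt2 ratio in ID4, at 1.0 itself, is not among the 20, though it ran from 0.962 to 1.03 with a library left out. Of the 14 without overlap 0 crossed 1. Leaving out a library cannot carry such a ratio across 1, so only the change of units could have done so. The number of conjugating enzyme genes called in LAC against NUL, 22, was 20 to 23 under the other settings, and the number in ID2 against LAC, 22, was 16 to 27. The 8 higher and 14 lower of ID2 against LAC became 7 and 9 with the title number or the clock genes as a covariate. With only the groups compared they were 7 and 20. In ID2 against NUL, 7 genes became 3 without a filter, 2 with the title number, 3 with the sequencing runs and 2 with the clock genes as a covariate. In ID6 against NUL, 2 became 5 by DESeq2 and 1 with only the groups compared. In ID6 against ID4, 6 became 10 by limma on log2(TPM + 1), with 10 higher and 0 lower in place of 4 and 2. In ID8 against NUL, 2 became 5 by DESeq2, 0 without a filter, 1 by limma, 0 with the title number, 1 with the sequencing runs, 1 with the clock genes and 1 with only the groups compared. The cause of these shifts was not tested.

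Leaving out 1 library gave 16 to 22 genes for LAC against NUL (16 without LAC_200), 18 to 19 for ID2 against LAC, 2 to 4 for ID2 against NUL, 6 to 8 for ID4 against NUL, 0 to 4 for ID6 against NUL (0 without NUL_221, 4 without ID6_230), 5 to 8 for ID6 against ID4, 0 to 2 for ID8 against NUL, 0 to 1 for REG against NUL (1 without NUL_220) and 28 to 37 for any difference (28 without LAC_200). Family sums per kilobase of CPM in place of TPM gave ratios to NUL of 0.963 to 1.09 times those reported. The Gstp ratio in LAC was 1.66 against 1.57. A ratio was taken to move when it shifted by more than the SD of both groups combined, a yardstick chosen after the values were seen. By it 1 of 78 ratios moved between units and 0 of 611 with a library left out, and by the SD of the compared stage alone 13 and 36 would have. Leaving out 1 animal shifts a group mean by less than its SD. With the spreads seen here the 0 of 611 was therefore fixed by the yardstick, and it says nothing on how stable the ratios are. Leaving out a library changed a ratio by 0.656 to 1.78 times, the extremes in the Sult3 to Sult9 sum, whose ratio without NUL_227 was 3.82 in ID2, 3.46 in ID4, 5.17 in ID6, 6.67 in ID8 and 3.62 in REG (2.15, 1.95, 2.91, 3.75 and 2.04 with it). Other libraries lowered the ratio of that sum when left out. It was 1.34 in REG without REG_203, 1.36 in ID4 without ID4_13 and 5.53 in LAC without LAC_200. Without NUL_220 it was 1.69 in ID2, 2.28 in ID6 and 2.94 in ID8. With 3 to 6 animals a group, genes of a few counts such as Sult1e1 allow no firm statement.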
